A study of Mus musculus with 10 samples.

Results

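The nuclear genes for the subunits of respiratory complex I were examined in mouse heart ventricles, grouped by the part of the enzyme in which each subunit sits. Members were probe sets annotated with a single symbol starting with Nduf, leaving out assembly factors (Ndufaf) and leaving out Ndufa4 and Ndufa4l2. This gave 39 of the 35556 probe sets on the array, which read 34 of the 19938 measured genes. All 34 were bright enough to be tested, among 13957 tested genes. Subunit genes without such a probe set were not analysed here, and every count below is over the 34 measured genes.

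RNA came from both ventricles of 10 mice, with 1 Affymetrix array per mouse and 5 mice per group. The tamoxifen-labelled group is titled PGC-1a-/-bf/f/MerCre and annotated as lacking PGC-1a and PGC-1b. These mice received tamoxifen at 50 mg/kg per day in sunflower seed oil on 2 days at 2 months of age. The vehicle-labelled group is titled PGC-1a-/- and annotated as lacking PGC-1a alone; it received the oil without tamoxifen. Hearts were collected at 3 months of age, 1 month after injection, in both groups. All 10 mice are thus labelled as lacking PGC-1a, and no group is labelled as having both coactivators. The source names give the floxed PGC-1b alleles and MerCre, a Cre recombinase switched on by tamoxifen, to the vehicle-labelled mice too, whereas their titles name neither. The labels do not name the promoter that drives MerCre. Tamoxifen itself, the activity of Cre and the loss of PGC-1b cannot be told apart in this design. The question was what the added removal of PGC-1b does to an adult ventricle without PGC-1a.

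Complex I is the largest enzyme of the respiratory chain. It takes electrons from NADH in its N module, passes them along iron-sulfur clusters to ubiquinone in its Q module, and pumps protons through a membrane arm with a proximal and a distal part. Core subunits are shared with bacteria and carry the chemistry, whereas accessory subunits surround them and are needed for assembly and stability. The membrane core subunits are made from mitochondrial DNA, and all other subunits from nuclear genes. PGC-1a and PGC-1b are transcriptional coactivators known for raising such genes in heart and muscle through the receptors ERR and the factors NRF1 and GABP.

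The probe set of the targeted gene did not read lower where the label says it was removed. Ppargc1b, which encodes PGC-1b, had log2 signals of 9.93, 10.15, 10.11, 9.93 and 10.03 in the tamoxifen-labelled arrays 1 to 5, against 9.76, 9.69, 9.82, 9.65 and 9.90 in the vehicle-labelled arrays 1 to 5. It was higher by 0.27 ± 0.061 (SE; limma adjusted p = 0.00529). No source used here says whether the probe set covers the exons removed by Cre, and if it does not, it is no check of the deletion. Every direction below rests on the labels. The labelled tissue was checked for heart muscle with 10 cardiomyocyte markers. These averaged log2 13.80 to 13.82 in the tamoxifen-labelled arrays and 13.79 to 13.81 in the vehicle-labelled arrays. They do not tell ventricle from atrium. The 4 atrial markers averaged 10.09 to 11.11 in the tamoxifen-labelled arrays, a wider spread than the 10.455 to 10.65 in the vehicle-labelled arrays. The part of atrial tissue in the complex I values was not tested. Array medians over all probe sets lay between 7.18 and 7.31, with tamoxifen array 2 at 7.31 and the other 9 arrays at 7.24 or less.

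All 34 complex I subunit genes fell in the tamoxifen-labelled arrays. The median log2 difference, tamoxifen minus vehicle, was -0.62, a 1.54-fold lower signal, against a median of 0.014 over all 13957 tested genes. A gene was called where its limma p, adjusted by the Benjamini-Hochberg method over all tested genes, was under 0.05, and 8.28% of all tested genes were called lower and 13.6% higher. The members' adjusted p ranged from 7.89e-10 for Ndufv1 to 0.00239 for Ndufa3. In each of the 34 genes the highest tamoxifen-labelled array lay below the lowest vehicle-labelled array, as it did in 6.12% of all tested genes. The gap between the groups ran from 0.030 for Ndufs5 to 1.04 for Ndufa5 on the log2 scale.

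Sizes differed widely among the subunits. Of the 26 genes on the whole array that were called and at least 2-fold lower (0.186% of those tested), 8 were complex I subunits, namely Ndufa5, Ndufb8, Ndufv1, Ndufb10, Ndufs1, Ndufa9, Ndufb7 and Ndufab1. Of the 150 called genes at least 1.5-fold lower (1.07%), 18 were subunits. Ranked from the lowest difference upward, 15 of the first 100 genes and 32 of the first 500 were members, and the last member, Ndufa3, stood at rank 775. In bulk tissue, fewer cells of a type and less RNA per cell cannot be told apart.

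**Figure D1:**
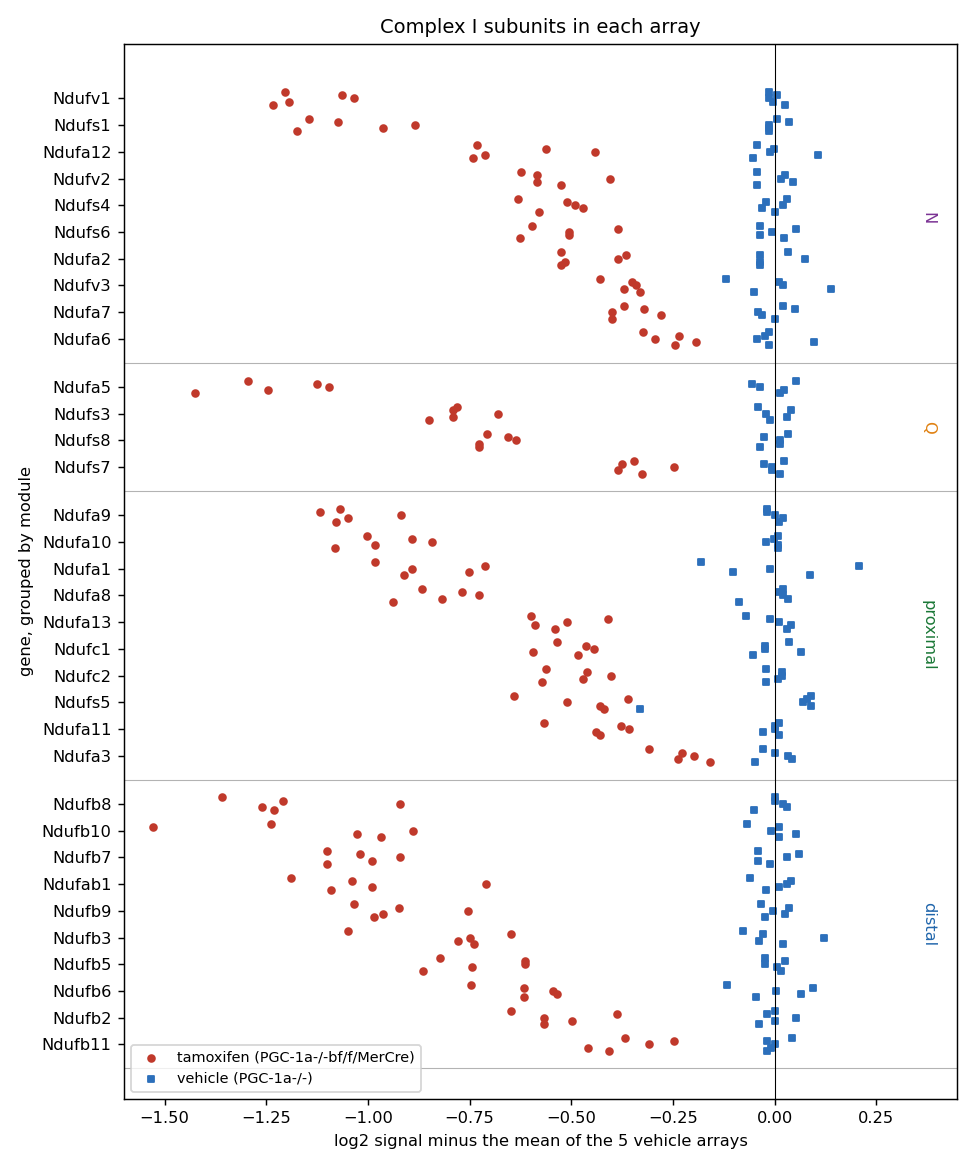
Log2 signal of each of the 34 subunit genes (rows, by module) in each array, minus the mean of the 5 vehicle arrays. Red circles are the 5 tamoxifen-labelled arrays and blue squares the 5 vehicle-labelled arrays. The groups do not overlap in any row, and the narrowest gap, 0.030, is that of Ndufs5.

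The promoters of the subunit genes were searched for letters bound by factors known to act on respiratory genes, since the members moved together. RefSeq promoters of build GRCm38.p6, from 250 bases before to 50 after each annotated start, were found for 31 of the 34 genes. The NRF1 motif, spelled GCGC, then any base, then TGCGC, and searched on both strands, was found in 6 of the 31 (19.4%), against 5.19% of 27025 genes with a promoter. The 5 matches that lie before the start are shown here with up to 20 bases on each side, 5′ to 3′ on the gene's strand, with the motif in capitals.
Ndufa5: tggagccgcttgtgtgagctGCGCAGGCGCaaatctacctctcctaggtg
Ndufa8: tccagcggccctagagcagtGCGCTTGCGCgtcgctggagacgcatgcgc
Ndufs6: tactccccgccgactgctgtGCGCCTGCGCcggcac
Ndufa11: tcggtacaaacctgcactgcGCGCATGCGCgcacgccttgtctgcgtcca
Ndufs5: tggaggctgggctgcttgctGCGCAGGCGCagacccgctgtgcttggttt
They lie at chr6:24527687-24527736 (minus strand), chr2:36049339-36049388 (minus), chr13:73328483-73328518 (minus), chr17:56717682-56717731 (plus) and chr4:123718255-123718304 (minus), in the order listed. In Ndufa5 and Ndufs5 the match reads on the opposite strand of the gene, so the capitals show the reverse complement of the spelling. Ndufa6 had its match after the annotated start. The log2 differences of these 6 genes spanned nearly the whole range of the members, with -1.24 for Ndufa5, -0.82 for Ndufa8, -0.52 for Ndufs6, -0.47 for Ndufs5, -0.43 for Ndufa11 and -0.26 for Ndufa6. Their median was -0.50, against -0.64 for the members with a promoter and no match, a description with no test.

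A YY1 motif, spelled AAGATGGCG, was found in 5 of the 31 promoters (16.1%) and in 1.64% of all genes with one. YY1 is a zinc-finger factor that, with PGC-1a, is known to act on mitochondrial genes. In all 5 the match began 22 to 35 bases after the annotated start base, and it is shown in capitals with up to 10 bases on each side.
Ndufa9: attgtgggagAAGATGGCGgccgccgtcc
Ndufc1: cctgcggaacAAGATGGCGccgtccgtag
Ndufs4: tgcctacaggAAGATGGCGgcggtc
Ndufs6: ggtcaccggcAAGATGGCGgcggtgct
Ndufs7: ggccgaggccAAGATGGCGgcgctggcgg
These lie at chr6:126849097-126849125 (minus), chr3:51408915-51408943 (minus), chr13:114388045-114388069 (minus), chr13:73328433-73328459 (minus) and chr10:80249463-80249491 (plus). The motif holds the letters ATG, and whether a match covers the start of translation was not examined. The 5 genes had a median log2 difference of -0.52, against -0.66 for the members with a promoter and no match.

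The core of the ERR site, AAGGTCA, was found in 2 of 31 promoters (6.45%), close to its 5.38% share of all genes. Both matches are shown with 20 bases on each side because ERR receptors are the best known partners of the PGC-1 coactivators.
Ndufb2: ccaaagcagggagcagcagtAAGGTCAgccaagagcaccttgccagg
Ndufs5: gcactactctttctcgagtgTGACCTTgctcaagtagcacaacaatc
They lie at chr6:39592364-39592410 (plus) and chr4:123718388-123718434 (minus), and in Ndufs5 the site reads on the opposite strand of the gene. Their log2 differences were -0.53 and -0.47. CCGGAAG, the core of the ETS sites that GABP binds, was found in Ndufb6, Ndufb7, Ndufs3 and Ndufs8, or 12.9% of the 31 promoters against 9.93% of all genes. These 4 had a median of -0.73, against -0.54 for the members with a promoter and no match, a description with no test. A CCAAT box was found in 29.0% of the 31 and in 41.1% of all genes, and the CRE letters TGACGTCA in 9.68% and 2.03%. A match is not a binding site, and in all 12 spellings of 6 motifs were searched. The shares over all genes include genes not tested on the arrays and were not matched to the members for signal. Whether the members' shares differ from those of other bright genes was not tested.

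Among the modules, the distal membrane part had the deepest median difference, -0.86 (10 genes). The Q module followed with -0.73 (4 genes), then the N module with -0.53 (10 genes) and the proximal membrane part with -0.52 (10 genes). Every gene of each module was called lower. The SD between genes within a module, 0.27 to 0.37, was about as large as the distance between the deepest and the shallowest module median, and the difference between modules was not tested. Some subunits lie at the border of modules. With Ndufa6, Ndufa7 and Ndufa9 counted in Q and Ndufab1 in N, the order was the same, with medians of -0.79 for distal, -0.69 for Q, -0.54 for N and -0.50 for proximal.

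**Figure D2:**
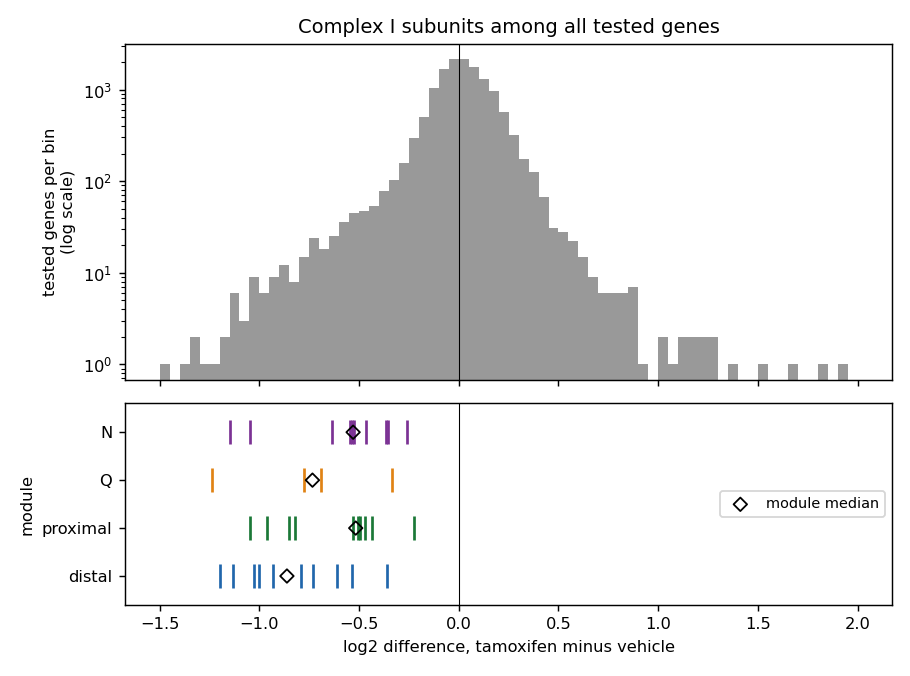
Upper panel, the number of tested genes (log scale) by log2 difference, tamoxifen minus vehicle, in bins of 0.05; lower panel, each subunit gene as a tick by module, with open diamonds at the module medians. All 34 ticks lie left of 0, between -1.24 and -0.23, and the distal median of -0.86 is the deepest.

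The distal median was the lowest of the 4 in every tamoxifen-labelled mouse. In tamoxifen arrays 1 to 5 the distal median, relative to the vehicle mean, was -1.04, -0.79, -0.73, -0.87 and -0.92. The proximal median in the same arrays was -0.62, -0.46, -0.51, -0.59 and -0.56. The same medians in the vehicle-labelled arrays stayed between -0.037 and 0.029 for all 4 modules.

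**Figure D3:**
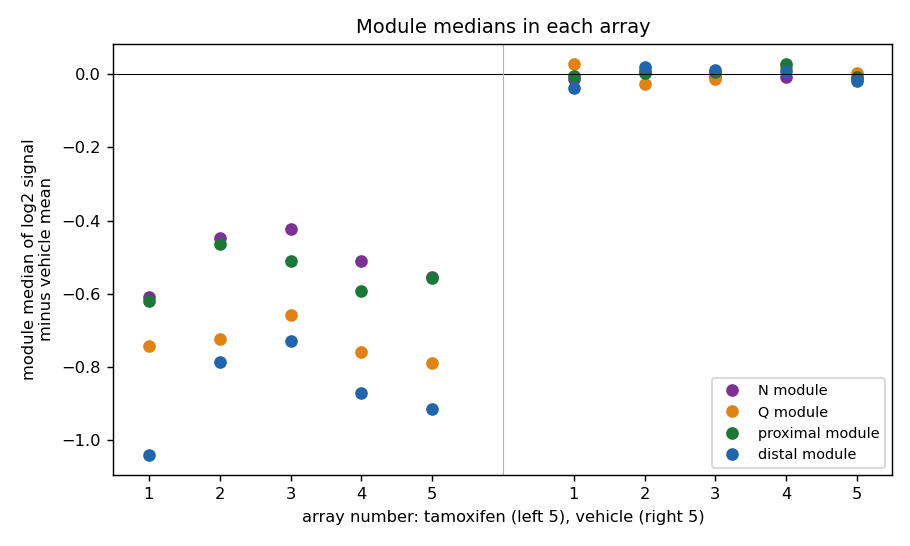
Median over each module's genes of the log2 signal minus the vehicle mean, for tamoxifen arrays 1 to 5 at left and vehicle arrays 1 to 5 at right; each point is 1 module in 1 array. The distal module is lowest in all 5 tamoxifen-labelled arrays, at -1.04 to -0.73, and the vehicle-labelled medians stay within -0.037 and 0.029.

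In the N module, core genes had a deeper median difference than accessory genes, -1.05 against -0.46, with 3 and 7 genes. Ndufv1 binds NADH and the flavin that takes its electrons. It read 11.26, 11.40, 11.43, 11.27 and 11.23 in the tamoxifen-labelled arrays, against 12.45, 12.47, 12.45, 12.46 and 12.49 in the vehicle-labelled arrays. The vehicle-labelled arrays lay within 0.040 of each other, and the groups were 1.02 apart at their nearest. Ndufv1 fell by 1.15 ± 0.051 (SE), or 2.21-fold, with an adjusted p of 7.89e-10. Ndufs1, the core subunit with the most iron-sulfur clusters, read 11.02, 11.09, 11.28, 11.20 and 10.99 with tamoxifen and 12.17, 12.20, 12.15, 12.15 and 12.15 with vehicle. It fell by 1.05 ± 0.057, which left 48.4% of the vehicle signal. Ndufv2, which pairs with Ndufv1 and holds an iron-sulfur cluster, read 12.66, 12.70, 12.88, 12.70 and 12.76 with tamoxifen and 13.24, 13.31, 13.30, 13.33 and 13.24 with vehicle. It fell by 0.54 ± 0.051, and its groups did not overlap.

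The N module's 7 accessory genes spanned -0.64 for Ndufa12, a deeper value than that of the core gene Ndufv2, to -0.26. The difference between these genes was not tested. The log2 difference was -0.54 ± 0.047 for Ndufs4, whose loss causes a Leigh-like disease in mice, and -0.52 for the zinc-binding subunit Ndufs6. It was -0.46 for Ndufa2, -0.36 for Ndufv3, a small subunit bound to the flavoprotein, and -0.35 for Ndufa7. Ndufa6, a LYR-family protein that anchors an acyl carrier, changed least in the module. It read 11.27, 11.36, 11.30, 11.40 and 11.35 in the tamoxifen-labelled arrays, against 11.58, 11.57, 11.55, 11.69 and 11.58 in the vehicle-labelled arrays, and fell by 0.26 ± 0.048 (adjusted p = 0.00102). Even here no tamoxifen-labelled array reached a vehicle-labelled one.

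The Q module held the deepest fall of all members. Ndufa5, an accessory subunit of the peripheral arm, read 9.49, 9.66, 9.69, 9.54 and 9.36 in the tamoxifen-labelled arrays, against 10.84, 10.73, 10.75, 10.81 and 10.80 in the vehicle-labelled arrays. It fell by 1.24 ± 0.061 (adjusted p = 1.56e-09), which left 42.4% of the vehicle signal, and only 5 tested genes had a lower difference. The 3 measured core genes fell less. Ndufs3 read 11.69, 11.68, 11.79, 11.68 and 11.62 with tamoxifen and 12.43, 12.51, 12.45, 12.50 and 12.46 with vehicle. It fell by 0.78 ± 0.047, and Ndufs8, which holds iron-sulfur clusters, fell by 0.69 ± 0.045. Ndufs7, which carries the cluster next to ubiquinone, read 13.69, 13.66, 13.79, 13.65 and 13.71 with tamoxifen and 14.06, 14.01, 14.03, 14.03 and 14.05 with vehicle. It fell by 0.34 ± 0.046, the smallest fall in the module.

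The proximal membrane genes ranged from -1.05 for Ndufa9 to -0.23 for Ndufa3. Ndufa9, which binds a nucleotide at the joint of the arms, read 11.05, 11.00, 11.20, 11.07 and 11.04 in the tamoxifen-labelled arrays, against 12.10, 12.10, 12.12, 12.14 and 12.13 in the vehicle-labelled arrays, and fell by 1.05 ± 0.048. Ndufa10, related to nucleoside kinases, fell by 0.96 ± 0.051, with 11.72 ± 0.094 in the tamoxifen-labelled and 12.68 ± 0.013 in the vehicle-labelled arrays (SD, n = 5 each). Ndufa1, a small membrane subunit, fell by 0.85, and Ndufa8, a cysteine-rich subunit facing the intermembrane space, fell by 0.82. The other 6 genes lay between -0.53 and -0.23, in the order Ndufa13 (-0.53, also known as GRIM-19), Ndufc1 (-0.50), Ndufc2 (-0.49), Ndufs5 (-0.47), Ndufa11 (-0.43) and Ndufa3 (-0.23).

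Ndufa3, a small membrane subunit, changed least of all members. Its signals were 12.45, 12.53, 12.56, 12.52 and 12.60 with tamoxifen and 12.73, 12.76, 12.79, 12.80 and 12.71 with vehicle. It fell by 0.23 ± 0.047 (adjusted p = 0.00239), which left 85.5% of the vehicle signal. Ndufs5, another cysteine-rich subunit of the intermembrane space, read 9.20, 9.48, 9.33, 9.41 and 9.42 with tamoxifen and 9.93, 9.92, 9.91, 9.93 and 9.51 with vehicle. Vehicle array 5 came within 0.030 of a tamoxifen-labelled array, and the log2 difference was -0.55 without that array and -0.47 with it.

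Distal membrane genes included 4 of the 8 members that fell 2-fold or more. Ndufb8 read 10.42, 10.57, 10.86, 10.52 and 10.55 in the tamoxifen-labelled arrays, against 11.78, 11.78, 11.80, 11.81 and 11.73 in the vehicle-labelled arrays. It fell by 1.20 ± 0.068 (adjusted p = 4.96e-09), or 2.29-fold. Ndufb10, a cysteine-rich subunit at the intermembrane face, read 8.39, 8.10, 8.74, 8.60 and 8.66 with tamoxifen and 9.56, 9.64, 9.62, 9.68 and 9.64 with vehicle. Its tamoxifen-labelled arrays spread over 0.64, the widest of any member, and it fell by 1.13 ± 0.093. Ndufb7, of the same cysteine-rich kind, was tighter, with 9.24, 9.32, 9.42, 9.35 and 9.24 with tamoxifen and 10.30, 10.40, 10.37, 10.30 and 10.33 with vehicle. It fell by 1.03 ± 0.050.

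Ndufab1 is the mitochondrial acyl carrier protein, which also serves lipoic acid synthesis and binds LYR-family subunits. It read 10.88, 11.03, 11.36, 11.08 and 10.98 in the tamoxifen-labelled arrays, against 12.01, 12.11, 12.10, 12.08 and 12.05 in the vehicle-labelled arrays, and fell by 1.00 ± 0.072. Its partner Ndufb9, a LYR-family subunit, fell by 0.93 ± 0.054, whereas its other partner, Ndufa6, fell by 0.26. Single-span membrane subunits filled the rest of the module, with Ndufb3 at -0.79, Ndufb5 at -0.73, Ndufb6 at -0.61, Ndufb2 at -0.53 and the X-linked Ndufb11 at -0.36. Ndufb11 was the distal gene that fell least, at 12.48 ± 0.083 with tamoxifen and 12.84 ± 0.025 with vehicle (SD, n = 5 each).

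Over the modules, the 6 measured core genes had a median of -0.73 and the 28 accessory genes a median of -0.57. Core genes ranged from -1.15 to -0.34 and accessory genes from -1.24 to -0.23, so the ranges overlapped almost fully. Cysteine-rich subunits of the intermembrane space also went far apart, with Ndufb10 at -1.13, Ndufb7 at -1.03, Ndufa8 at -0.82 and Ndufs5 at -0.47.

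For 5 genes another probe set stood beside the one used, and all 5 genes were called lower by both. The log2 difference of the other probe set was -0.996 ± 0.068 for Ndufab1, -0.80 ± 0.047 for Ndufs3 and -0.53 ± 0.047 for Ndufc1. It was -0.32 ± 0.050 for Ndufb11, against -0.36 in the probe set used, and -0.32 ± 0.046 for Ndufa11, against -0.43. A probe set can also bind near-identical copies of a gene, and this was not separated here.

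The members spread more among the tamoxifen-labelled than among the vehicle-labelled mice. Their median SD was 0.083 in the tamoxifen-labelled and 0.039 in the vehicle-labelled arrays. Over all tested genes the median SD was 0.0952 with tamoxifen and 0.0835 with vehicle. The members' median was thus below that of all genes in both groups, and further below it with vehicle. All genes were not matched to the members for signal, and whether other bright genes lie as close together was not tested. Of the 34 members, 29 had the larger SD with tamoxifen, against 60.6% of all tested genes. Averaged over the 34 genes, tamoxifen arrays 1 to 5 stood at -0.78, -0.66, -0.61, -0.69 and -0.73 relative to the vehicle mean, and the vehicle-labelled arrays between -0.021 and 0.017. Array 1 was the lowest tamoxifen-labelled array in 15 members and the lowest in 17.2% of all tested genes. Array 3 was the highest in 19 members, against 6.41% of all tested genes. Tamoxifen array 2, with the raised median, was the highest in 68.2% of all tested genes but in only 8 members.

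Related genes outside the set moved as follows. Of 17 measured complex I assembly factors, 10 fell and 0 rose, with a median of -0.27. They included Ndufaf4 at -0.92 ± 0.065 and Foxred1 at -0.90 ± 0.052. Ndufa4, now counted with cytochrome oxidase, fell by 0.94 ± 0.050, whereas its relative Ndufa4l2, known to be raised in hypoxia, differed by -0.16 ± 0.081 and was not called (adjusted p = 0.174).

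ND3, a core membrane subunit made from mitochondrial DNA, was the only gene of that kind read by a probe set with a single symbol. It read 13.61, 13.80, 13.82, 13.67 and 13.86 in the tamoxifen-labelled arrays, against 13.81, 13.89, 13.93, 13.90 and 13.86 in the vehicle-labelled arrays. The groups overlapped, and the difference of -0.13 ± 0.055 was not called (adjusted p = 0.12). Its 95% interval ran from -0.24 to -0.0083.

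Subunit genes of the other complexes fell as well. All 4 of complex II fell (median -1.05), all 9 of complex III (-0.99) and all 17 of complex V (-0.60), and 11 of 14 of complex IV fell with 0 higher (-0.55). Of 12 coactivator and factor genes, 5 fell and 3 rose. Esrra, which encodes the receptor ERR alpha, fell by 0.42 ± 0.057, and Nrf1 differed by 0.036 ± 0.063 (adjusted p = 0.742). Ppargc1a, labelled as deleted in all mice, read 10.95, 11.58, 11.13, 11.20 and 11.14 in the tamoxifen-labelled arrays, against 10.83, 11.04, 10.71, 10.70 and 10.79 in the vehicle-labelled arrays. The groups overlapped, and it was higher by 0.39 ± 0.095 (adjusted p = 0.00814). No source used here says whether its probe set covers the deleted part, so it is no check of that label. Pprc1 was higher by 0.19 ± 0.067 (adjusted p = 0.0479).

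Cell type markers were read in the same arrays, where 13.6% of all tested genes were called higher and 8.28% lower. Of 10 cardiomyocyte markers, 1 rose and 1 fell, with a median of 0.038. Macrophage markers rose in 7 of 9 genes (0 fell, median 0.28), and their mean level was 9.27 to 9.52 in the tamoxifen-labelled and 9.04 to 9.24 in the vehicle-labelled arrays. Fibroblast markers rose in 6 of 10 (0 fell, median 0.19), at a mean level of 10.09 to 10.30 in the tamoxifen-labelled and 9.89 to 10.03 in the vehicle-labelled arrays. Endothelial markers rose in 1 of 8 and smooth muscle and pericyte markers in 2 of 7, with 0 lower in both. The part of these cells in the complex I values was not tested.

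**Figure D4:**
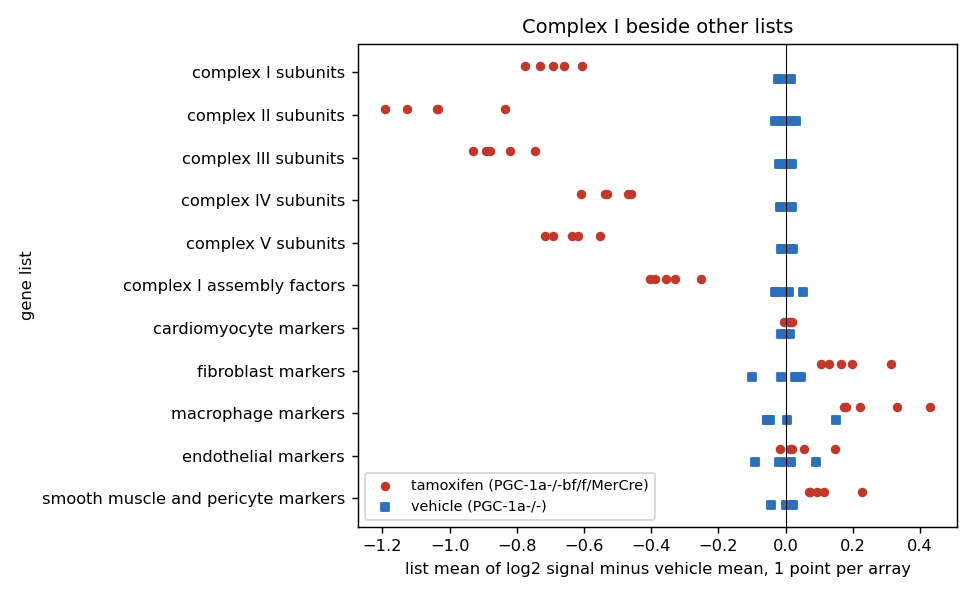
Mean log2 signal over each gene list minus the vehicle mean, with 1 red circle per tamoxifen-labelled array above 1 blue square per vehicle-labelled array. Complex I means lie at -0.78 to -0.61 in the tamoxifen-labelled arrays and -0.021 to 0.017 in the vehicle-labelled arrays, while the cardiomyocyte marker means of the groups overlap.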

How the data were processed

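Per the submitters' processing notes, the deposited log2 values are RMA signals from Affymetrix Expression Console 1.1. RMA removes background, normalizes the arrays together, summarises each probe set and compresses large differences. Single-probe intensities and detection calls were not used here. Of 35556 probe sets, the platform annotation gave 1 gene symbol to 21789, several to 1621 and none to 12146; only the first kind was used. For 999 genes with more probe sets, that with the highest mean was taken, and the dimmest 30% of genes by mean over all arrays (below log2 6.53) were dropped. limma 3.58.1 (R 4.3.3) was fitted by lmFit and eBayes to the remaining 13957 genes without covariates, two-sided, with Benjamini-Hochberg adjustment at 0.05; the code was tested on simulated data. Each array is 1 mouse, no arrays were identical, and 5 arrays per group limit the precision. Alternatives changed the block, prior, array weights, normalization, centring, dim filter, choice of probe set and border subunits' module, and left out each array. Modules were assigned by hand from the known structure of mammalian complex I. Members, lists and motifs were chosen with earlier results of these data known, and the spellings printed were picked after matches were seen. Every member may be named, with fixed genes beside them and the 2 assembly factors of smallest p. Skeletal muscle markers (2 of 5 tested higher), adipocyte markers (0 of 2) and atrial markers (1 of 4) were also examined. Promoters are RefSeq's, build GRCm38.p6. Figures used matplotlib 3.10.9 (Python 3.11.15).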

Additional observations from a re-analysis of the deposited data

Results flagged for a closer look

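In 4 of 68 sets of 5 arrays (each member in each group), 1 array stood apart from the other 4, with its gap to the nearest array making up most of the set's range. Chance flags about 1 in 20 such sets. Ndufs5 in vehicle array 5 read 9.51, below the other vehicle arrays by 0.952 of the range. Ndufa8 was low in the same array (11.99, 0.833 of the range). In vehicle array 4, Ndufa6 was high (11.69, 0.786 of the range) and Ndufa11 was low (12.22, 0.750 of the range). No tamoxifen-labelled set was picked out by this rule. All 4 genes were called lower with and without these arrays.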

How the results depend on the processing

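All 34 genes kept their direction and their call under each of 19 alternatives (646 results in all), with a highest adjusted p of 0.00982, for Ndufa3 without tamoxifen array 1. The block, prior and dim filter settings can change a gene's p but not its log2 difference, so they could not test its direction. The same holds for each probe set on its own, where a gene's result was that of the probe set already used. Averaging a gene's probe sets could move only the 5 genes with another probe set. The largest move of a gene's value was 1.17 times, for Ndufs5 without vehicle array 5. The count of lower genes was 34 with each array left out and 39 of 39 when each probe set was tested on its own, and 0 were higher in every setting. The median over the 34 genes ran from -0.66 to -0.60 with each array left out. For the modules, these ranges were -0.89 to -0.82 for distal, -0.75 to -0.72 for Q, -0.54 to -0.51 for N and -0.54 to -0.50 for proximal. With border subunits reassigned the distal median was -0.79, and the Q module held 7 genes, all lower, with a median of -0.69, and with every probe set on its own the Q median was -0.78, because more genes or probe sets were counted. With the replicate number as a block, 34 genes were lower. The median stayed at -0.62, which was fixed in advance because each number has 1 array per group. Arrays of the same number correlated at 0.173, 0.203, 0.098, 0.037 and 0.173 in their deviations from the group means. Of the 5 tamoxifen-labelled arrays, 3 correlated best with their own number. These values do not settle whether the numbers are pairs. The labels state no pairing, so the reported fit used none. The block gave 1297 lower and 2225 higher calls over all tested genes. Over all genes, the calls were 1155 lower and 1897 higher, against 1649 and 1621 without tamoxifen array 2, 1784 and 1904 with array weights, 1692 and 2087 after quantile normalization, 1281 and 2458 with centring on the median, and 997 and 1943 without tamoxifen array 3. Of these settings, the first 3 had more lower calls for each higher one than the fit reported, and the other two had fewer. Signal over background could not be judged without detection calls.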
